A study of Mus musculus with 4 samples.

Results

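Proteoglycans are proteins that carry long sulphated sugar chains, and those described here are made by stromal cells, the connective tissue cells that build the scaffold of an organ. The 10 genes examined encode 7 small proteins with leucine-rich repeats (Dcn, Lum, Bgn, Fmod, Ogn, Aspn and Prelp), the large matrix proteoglycan versican (Vcan) and 2 proteoglycans of the cell surface (Gpc3 and Sdc1). They were taken by name, as all probe sets whose platform annotation gives one of these symbols alone, which found 31 of 45037 probe sets and all 10 genes among 18193. The brightest probe set of a gene, by its mean over the 4 arrays, stands for that gene, and its others are given beside it.

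The cells came from axillary lymph nodes that drained tumours grown under the skin of female SCID/NOD mice aged 6 to 8 weeks. In the metastatic group the tumours were made of 293-VEGF-D cells, a human embryonic kidney line that overexpresses the lymphatic growth factor VEGF-D, and in the non-metastatic group of 293-Apex cells. Tumours grew for 3 to 4 weeks and had reached 1600 to 2500 mm3 when the nodes were removed, and a preparation pooled the nodes of 1 to 5 mice. The stromal cells were cultured briefly in a medium for endothelial cells and selected with magnetic beads for podoplanin. Each group has 2 biological replicates with 1 array each. Nodes of the metastatic group were used only when visibly enlarged. The sorting label gives a depletion of tumour cells and leukocytes for that group alone, but the protocol text, which is the same for all samples, lists that step with no mention of a group, and the labels do not settle which holds. The tumour line, with its overexpressed VEGF-D, and what differed with the group in these steps cannot be told apart from metastasis.

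The small leucine-rich proteoglycans bind collagen fibrils and set how fibrils assemble, and several of them also bind growth factors of the TGF-beta family. Versican binds hyaluronan and forms a hydrated matrix around cells. Glypicans and syndecans carry heparan sulphate at the cell surface, where the chains bind growth factors and chemokines. In lymph nodes, reticular fibroblasts lay down a fibre network on which lymphocytes move, and proteoglycans are part of that network and of its capsule.

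The labels call the cells an enriched endothelial fraction. Most markers of fibroblasts were bright, and 0 of 12 measured genes had a 4-array mean under the median of all probe sets (a log2 signal of 5.95). Of all 18193 genes, each by its brightest probe set, 6267 lay under it. Fap and Pi16 lay just above it, at means of 6.07 and 6.16, and Fap was under it on replicate 2 of each group (5.53 and 5.57). Of the 11 blood endothelial markers 6 had means under that median, among them Pecam1 at 4.94 and Cdh5 at 5.87. Of the 8 lymphatic markers 3 lay under it, the transcription factor Prox1 at 4.00 among them, while Pdpn, the selection marker podoplanin, had 10.60. Of the 11 leukocyte markers 6 lay under it, Ptprc at 4.13 among them, and Csf1r of macrophages had 9.70. No detection calls were used, so a dim gene cannot be called absent, and fewer cells of a type cannot be told apart from less RNA per cell.

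The results turn on 2 patterns. The replicates of the metastatic group differed widely in Aspn and Ogn, which lie in a row of related genes on chromosome 13, and Prelp had a lower mean signal in the metastatic group. The 250 bases before the start of each of these genes, and of Omd, which lies between Aspn and Ogn, are shown because these genes carry the patterns, Aspn, Omd and Ogn the first and Prelp the other. They are RefSeq sequences of mouse build GRCm38.p6, written 5′ to 3′ on the gene's own strand, and capitals mark the letters TATAAA or their reverse complement TTTATA.

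Aspn (chr13:49544193-49544442, plus strand): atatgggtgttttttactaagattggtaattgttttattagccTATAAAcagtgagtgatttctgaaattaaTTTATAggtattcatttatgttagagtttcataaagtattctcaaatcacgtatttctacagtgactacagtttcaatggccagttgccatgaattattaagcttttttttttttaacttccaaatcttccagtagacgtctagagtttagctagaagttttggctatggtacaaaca
Omd (chr13:49582212-49582461, plus strand): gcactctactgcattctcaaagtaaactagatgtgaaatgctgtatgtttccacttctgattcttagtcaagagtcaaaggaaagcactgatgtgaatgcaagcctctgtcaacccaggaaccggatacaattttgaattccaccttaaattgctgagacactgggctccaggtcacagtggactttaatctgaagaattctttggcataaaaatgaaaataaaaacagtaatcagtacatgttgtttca
Ogn (chr13:49607765-49608014, plus strand): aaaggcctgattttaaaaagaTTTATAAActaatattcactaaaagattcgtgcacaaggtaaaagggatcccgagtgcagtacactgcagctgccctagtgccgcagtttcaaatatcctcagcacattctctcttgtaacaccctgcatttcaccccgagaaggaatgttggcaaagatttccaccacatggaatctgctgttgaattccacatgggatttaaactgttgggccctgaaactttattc
Prelp (chr1:133921402-133921651, minus strand): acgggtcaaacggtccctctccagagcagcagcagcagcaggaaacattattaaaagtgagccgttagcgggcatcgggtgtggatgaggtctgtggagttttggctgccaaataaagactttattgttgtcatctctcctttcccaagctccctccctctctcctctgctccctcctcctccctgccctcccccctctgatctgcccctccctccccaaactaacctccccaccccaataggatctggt

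Windows of this kind were found for 8 of the 10 genes, all but Dcn and Lum. Aspn holds the letters TATAAA at 207 bases before its start and the reverse complement at 178, and in Ogn the forward and reverse forms overlap, at 227 and 229 bases. Omd, Prelp and the other windows of the set hold neither, and the letters occur on either strand in 12.3% of 32536 such windows. The AP-1 motif TGANTCA, found in 6.7% of all windows, was searched on both strands and occurs in none of the windows of the set or of Omd. These matches describe letters in a window and not sites of binding.

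None of the 10 genes passed limma with Benjamini-Hochberg adjustment over all probe sets at 0.05 for metastatic minus non-metastatic, where 0 of 45037 probe sets were called (a background of 0%). At an unadjusted p under 0.05, 1 of the 10 passed, Prelp, which was lower, against 4.07% of all genes lower, 2.63% higher and 6.7% in either direction. Of the 10, 5 had higher and 5 lower mean signals in the metastatic group, with a median difference of 0.0074 log2 units beside -0.00034 over all genes. The groups did not overlap for 2 of the 10, where 34.6% of all genes had no overlap: Prelp, which was lower (17.3% of all genes), and Gpc3, which was higher (17.2%). Prelp alone of the 10 was lower by at least 2-fold, as were 0.704% of all genes. Without metastatic replicate 1, or without metastatic replicate 2, 4 of the 10 were under an unadjusted p of 0.05, where 10.7% and 15.6% of all genes were in the same fits. With 2 arrays in each group, the smallest two-sided p of an exact permutation test is 0.33, so none was run.

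**Figure D1:**
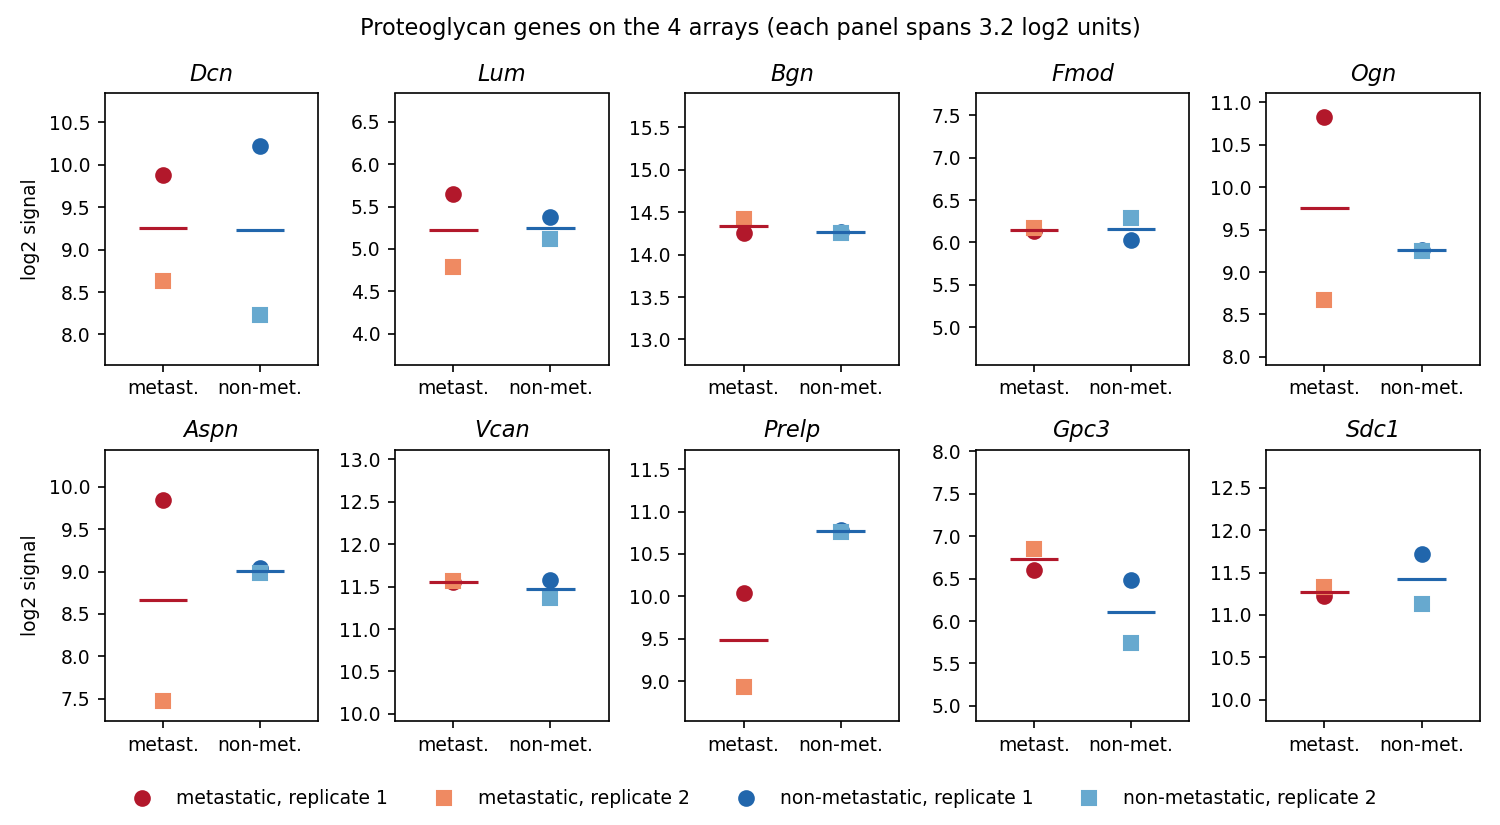
Log2 signal of the 10 proteoglycan genes on each array, with circles for replicate 1, squares for replicate 2 and a bar at each group's mean of 2 arrays; every panel spans the same log2 distance around the gene's own mean. The metastatic replicates of Aspn (9.85 and 7.48) and Ogn (10.83 and 8.67) lie on either side of the non-metastatic ones, and both metastatic values of Prelp lie under the non-metastatic pair.

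Prelp had the largest group difference of the 10. It encodes a leucine-rich protein with a basic region that binds heparan sulphate, and it is thought to link basement membranes to collagen. Its log2 signal was 10.04 and 8.93 on the metastatic arrays and 10.78 and 10.76 on the non-metastatic arrays. Both metastatic arrays were lower, and they lay farther from each other than the non-metastatic arrays did. The means were 9.49 ± 0.79 against 10.77 ± 0.01 (SD, n = 2 each), which gave -1.28 (SE 0.35), a signal 2.43-fold lower, and it did not pass (limma adjusted p = 0.608). The second probe set of Prelp was lower by a smaller amount, with 9.40 and 8.67 against 9.72 and 9.70, a difference of -0.68 (SE 0.24). The brighter probe set carries a suffix (_s_at) that the array's naming gives to probe sets able to bind several transcripts, and the second does not. Without metastatic replicate 1 the difference was -1.84 and passed (limma adjusted p = 0.0313), as 0.192% of all genes did in that fit, and without metastatic replicate 2 it was -0.72. Over the alternatives that kept all arrays the adjusted p went down to 0.129, and it stayed above 0.05.

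Several marker lists of other cells had mostly lower mean signals in the metastatic group, as Prelp had, and they differed in how many genes were lower at an unadjusted p under 0.05. Among all 18193 genes 9113 had lower means, and 4.07% were lower at that p. Of 11 markers of smooth muscle and pericytes, 10 had lower means, 7 of them at that p, and their summed linear signal was 18060 and 29070 on the metastatic arrays against 36400 and 34500. Of 11 leukocyte markers 8 had lower means, 3 at that p, with sums of 1383 and 1199 against 1861 and 1750, and Ptprc itself was dim on every array. Of 10 epithelial and mesothelial markers 9 had lower means but 1 was under that p, and the sums of 994 and 1533 against 1402 and 1877 overlapped. All 7 measured markers of cycling cells had lower means, 2 at that p. The endothelial lists were mixed. Of 11 blood endothelial markers 6 had higher and 5 lower means (median 0.016), and Emcn, of blood vessels and sinuses, was the lowest at -2.53 (SE 0.29). Of 8 lymphatic markers 3 had higher and 5 lower means. Lyve1, of lymphatic vessels, stood at -2.76 (SE 0.64), with 6.32 and 4.23 on the metastatic arrays, while Pdpn stood at 0.51 and Nrp2 at 0.71. The sums of 12 fibroblast markers were 82470 and 83090 against 80140 and 82660, and overlapped between the groups. The part of these cells in the Prelp value was not tested.

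Prelp lies between Optc and Fmod on chromosome 1, by gene order in GRCm38.p6. The proteins of all 3 genes have leucine-rich repeats. Optc, which encodes opticin of the eye, was dim, with 5.40 and 5.36 against 5.31 and 5.32. Fmod, which encodes fibromodulin, a binder of collagen that carries keratan sulphate, had 6.13 and 6.16 against 6.03 and 6.29. Neither had the lower metastatic values that Prelp showed. Btg2, an antiproliferative gene on the far side of Fmod that is named after its values were seen, had them, with 9.97 and 9.35 against 10.34 and 10.27. Its difference was -0.65 (SE 0.21), or -0.33 without metastatic replicate 2. The difference of Fmod was -0.014 (SE 0.13), and its sign turned when 1 array was left out (0.0019 without metastatic replicate 1; 0.12 when non-metastatic replicate 2 was dropped). The 6 probe sets of Fmod stood between -0.32 and 0.021. The one not marked as able to bind several transcripts was dim, with 5.66 and 5.61 against 5.79 and 5.83, so that its groups did not overlap, with a difference of -0.17 (SE 0.11).

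**Figure D2:**
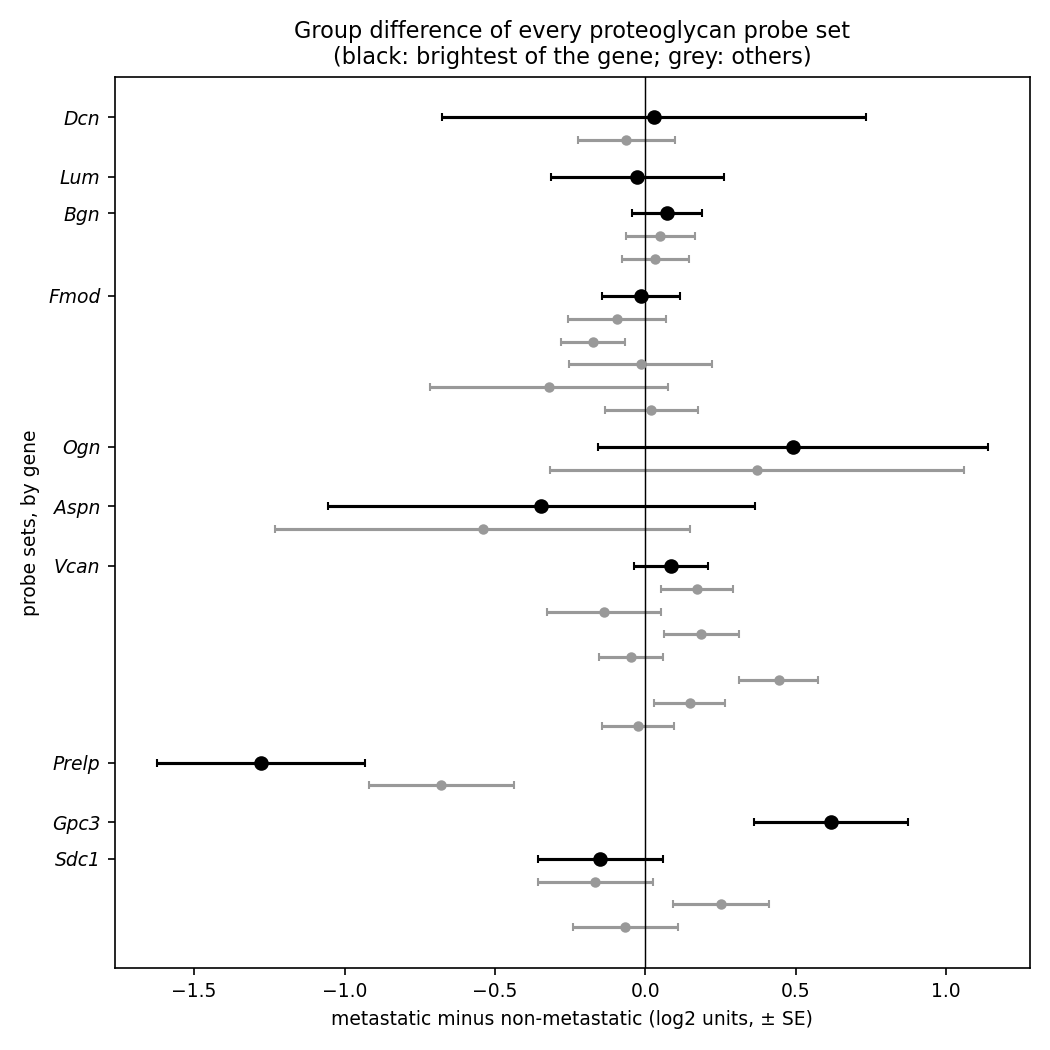
Difference between the groups (metastatic minus non-metastatic, log2 units) of all 31 probe sets, with bars of 1 SE from limma; black points are the brightest probe set of each gene and grey points its others. Both probe sets of Prelp lie below 0, and the bars of Dcn, Ogn and Aspn are the widest among the black points.

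Aspn and Ogn were the members that varied most between arrays, and they did so inside the metastatic group. Aspn encodes asporin, which binds collagen and TGF-beta and differs from its relatives in a run of aspartic acid residues. Its log2 signal was 9.85 and 7.48 on the metastatic arrays and 9.04 and 8.98 on the non-metastatic arrays. Metastatic replicate 1 was the highest of the 4 and metastatic replicate 2 the lowest, 5.18-fold apart. The difference between the group means was -0.35 (SE 0.71; 8.66 ± 1.68 against 9.01 ± 0.04). It became -1.53 without metastatic replicate 1, which passed (limma adjusted p = 0.0418), and 0.84 without metastatic replicate 2, which did not (adjusted p = 0.130). The second probe set of Aspn, which is marked as able to bind several transcripts, had 9.47 and 7.17 against 8.95 and 8.77.

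Ogn encodes osteoglycin, also called mimecan, a small leucine-rich protein of bone, cornea and vessel walls. Its values were 10.83 and 8.67 on the metastatic arrays and 9.26 and 9.25 on the non-metastatic arrays. The order of the arrays was again metastatic replicate 1 highest and metastatic replicate 2 lowest, with a 4.47-fold gap between them, while the non-metastatic arrays differed by 1.01-fold. The group means differed by 0.49 (SE 0.65; 9.75 ± 1.53 against 9.26 ± 0.01), and by -0.59 without metastatic replicate 1 and 1.57 without metastatic replicate 2. The second probe set of Ogn gave 10.74 and 8.44 against 9.24 and 9.20.

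Gene order in GRCm38.p6 puts Ecm2, Aspn, Omd and Ogn next to each other on chromosome 13, and all of them encode leucine-rich proteins of the matrix. Omd, which encodes osteomodulin of bone matrix and is named here for its place, after its values were seen, had 6.63 and 5.61 on the metastatic arrays and 6.07 and 6.03 on the non-metastatic ones. Its 4 arrays thus came in the same order as those of Aspn, over a range of 1.02 between the metastatic replicates, while its group difference was 0.070 and that of Aspn negative. Ecm2 was dim and nearly flat, at 4.15 and 4.15 against 4.21 and 4.20. The genes directly on either side of the row varied far less. Cenpp, of the centromere, had 7.94 and 7.77 against 7.89 and 7.81, the same order as Aspn over a narrow range. Nol8, a nucleolar protein gene, had 7.94 and 7.59 against 8.00 and 7.76, in another order. Iars, on the far side of Nol8, had 10.72 and 11.22 against 10.79 and 10.75, and was highest on metastatic replicate 2. Vcan lies on the same chromosome, beside the hyaluronan link protein gene Hapln1, and did not have this pattern.

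**Figure D3:**
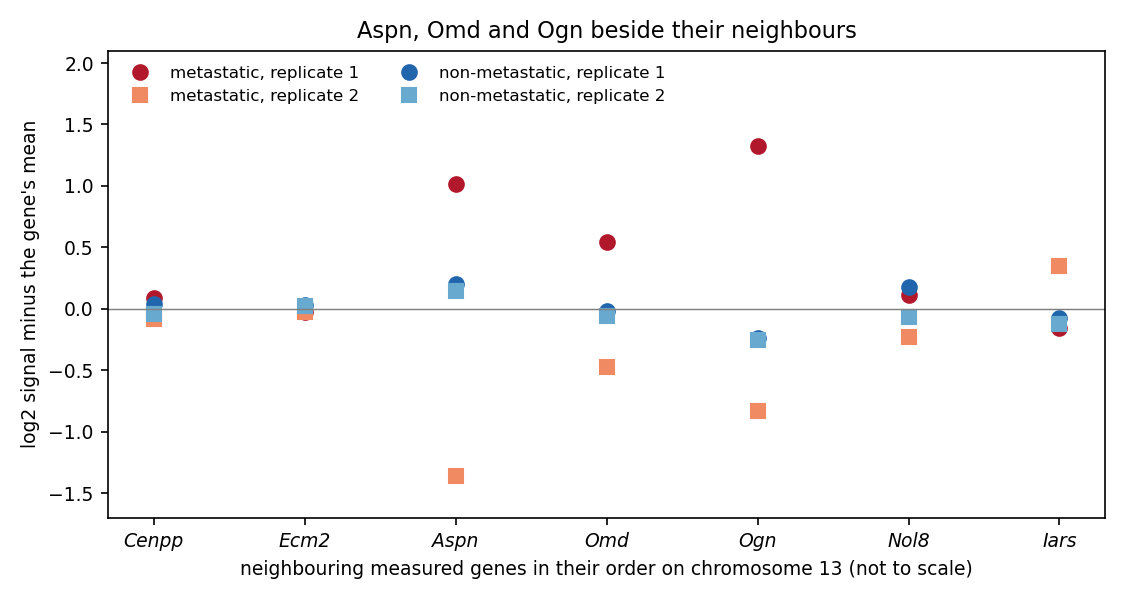
Log2 signal minus the gene's own mean over the 4 arrays, for measured genes around Ogn in their order on chromosome 13 (spacing not to scale). Aspn, Omd and Ogn are highest on metastatic replicate 1 and lowest on metastatic replicate 2, while Cenpp, Ecm2 and Nol8 stay close to their means. Iars is highest on metastatic replicate 2.

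The genes whose profile over the 4 arrays was most like that of Aspn were Ifit3, Gbp3 and C1ra, by Euclidean distance between mean-centred log2 values (0.27, 0.31 and 0.42 over 4 arrays). Ifit3, an interferon-induced gene, had 12.93 and 10.68 on the metastatic arrays against 11.89 and 12.12. Gbp3, which encodes a guanylate-binding protein, had 10.30 and 8.29 against 9.51 and 9.72, and C1ra, a protease of complement, had 9.16 and 7.12 against 8.09 and 8.36. Among all other genes Ogn ranked 48 by this distance, Lum 183 and Prelp 460, whereas Sdc1 ranked 11831, Bgn 13285 and Gpc3 17710. With 4 arrays many genes share any one order, and the ranks are a description. Among the 12 fibroblast markers 2 had metastatic replicates at least 1 log2 unit apart, as 1.76% of all genes did. Both were in the array order of Aspn and are named after their values were seen. Dpt, which encodes the matrix protein dermatopontin, had 10.65 and 8.18 against 9.31 and 8.93, and Fap, a protease of activated fibroblasts, had 6.87 and 5.53 against 6.29 and 5.57. Twist1, Postn, Col3a1, Pdgfrb and Pi16 were also higher on metastatic replicate 1 than on metastatic replicate 2, by 0.16 (Pi16) to 0.72 (Twist1). Pdgfra, Mfap5, Col1a1, Col1a2 and Thy1 went the other way. They were lower on metastatic replicate 1 than on metastatic replicate 2, with gaps from 0.07 (Thy1) to 0.45 (Pdgfra). The sums of all 12, in which the bright collagens weigh most, were nearly equal on the metastatic replicates. The sum of smooth muscle markers, in which Acta2 and Tagln weigh most, was lower on metastatic replicate 1, which is opposite to Aspn and Ogn. The part of any cell type in the Aspn and Ogn values was not tested.

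Dcn varied with the replicate number in both groups. It encodes decorin, which coats collagen fibrils and carries a chondroitin or dermatan sulphate chain. Its log2 signal was 9.88 and 8.63 on the metastatic arrays and 10.23 and 8.23 on the non-metastatic arrays. In each group replicate 1 was the higher, by 2.36-fold and 4.00-fold. The groups overlapped, and the difference of 0.029 (SE 0.71) became -0.59 without metastatic replicate 1 and -0.97 when non-metastatic replicate 2 was dropped. The labels do not say that equal numbers share a day or a batch. The second probe set of Dcn was dim (mean 4.42), with 4.45 and 4.33 against 4.65 and 4.26, and gave no usable check of the first.

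Lum lies next to Dcn on chromosome 10 and encodes lumican, a keratan sulphate proteoglycan that spaces collagen fibrils. Its only probe set was dim, at 5.65 and 4.79 on the metastatic and 5.37 and 5.12 on the non-metastatic arrays, under the median of all probe sets on each. Replicate 1 was again the higher in both groups, and the groups overlapped (difference -0.026, SE 0.29, and 0.41 without metastatic replicate 2 or 0.10 without non-metastatic replicate 1). Kera and Epyc, further related genes beside Lum, were dim, with means of 3.99 and 3.85, and ranges over the 4 arrays of 0.12 and 0.11 log2 units.

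Set against all genes, these gaps between replicates were wide. The metastatic replicates were at least 1 log2 unit apart for 4 of the 10 genes (Aspn, Ogn, Dcn and Prelp), where 1.76% of all genes were. The non-metastatic replicates were that far apart for 1 of the 10, Dcn, where 0.737% of all genes were. The median gap of the 10 was 0.55 in the metastatic and 0.24 in the non-metastatic group, beside 0.18 and 0.11 over all genes. Aspn and Ogn each stood at percentile 99.9 of all genes for the metastatic gap and Dcn at 99.9 for the non-metastatic one, whereas Ogn stood at 5.8 for the latter.

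**Figure D4:**
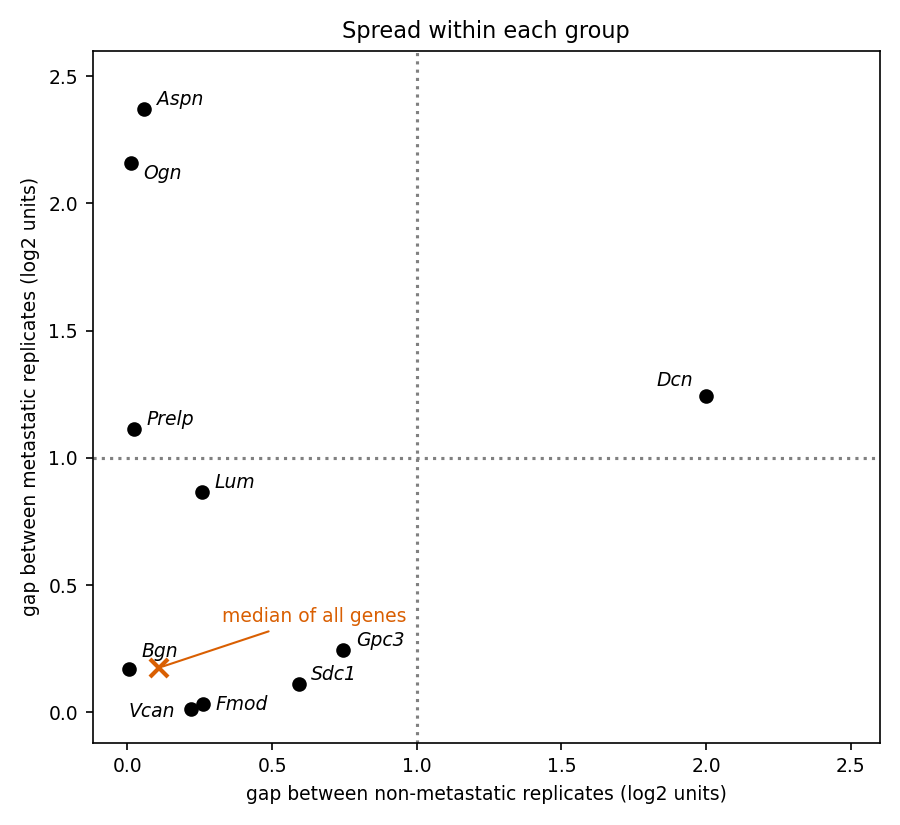
Absolute difference between the 2 replicates of each group in log2 units, non-metastatic on the x axis and metastatic on the y axis, for the 10 genes (black) and the median of all genes (cross); dotted lines mark 1 log2 unit. Aspn, Ogn and Prelp spread in the metastatic group alone, and Dcn spread in both.

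Bgn and Vcan had narrow ranges over the arrays. Bgn encodes biglycan, the closest relative of decorin, which binds collagen and can signal through Toll-like receptors. Its signal lay near the top of the scale, whose maxima on the arrays as deposited were 14.8 to 14.87, with 14.25 and 14.42 on the metastatic and 14.27 and 14.26 on the non-metastatic arrays. All values lay within 0.17 log2 units, and so close to the maximum of the scale this does not show that Bgn was unchanged. The difference was 0.072 (SE 0.12), or -0.013 without metastatic replicate 2, and the 3 probe sets of Bgn stood at 0.072, 0.050 and 0.034.

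Versican had 11.55 and 11.56 on the metastatic and 11.58 and 11.36 on the non-metastatic arrays, and the groups overlapped in this brightest probe set. The difference was 0.086 (SE 0.12), or -0.024 without non-metastatic replicate 2. Among the 8 probe sets of Vcan, the 3 bright ones stood at 0.086, 0.17 and -0.14, in both directions. The second of these had 11.53 and 11.48 against 11.43 and 11.24, so that its groups did not overlap. The 5 others were dim, under the median of all probe sets. Over the 8, groups were apart in 5, higher in 4 and lower in 1, where 34.6% of all genes had groups apart. All of these but the second bright one were dim. The largest of these differences was in a dim probe set, with 4.36 and 4.63 against 4.05 and 4.05, and its 0.44 (SE 0.13) did not pass (limma adjusted p = 0.649).

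The cell-surface members differed in opposite directions by their mean signals. Gpc3 encodes glypican-3, which is anchored by a lipid and modulates hedgehog and Wnt signals. Its only probe set had 6.61 and 6.85 on the metastatic and 6.48 and 5.74 on the non-metastatic arrays. The groups did not overlap, but metastatic replicate 1 and non-metastatic replicate 1 were close, and non-metastatic replicate 2 was lower than the other 3. The difference of 0.62 (SE 0.26), or 1.53-fold, did not pass (limma adjusted p = 0.831), and it was 0.24 without non-metastatic replicate 2 but 0.99 when replicate 1 of that group was dropped. Gpc4, the gene next to Gpc3 on the X chromosome, had the opposite sign, with 10.92 and 11.28 against 11.39 and 11.52 (difference -0.36, SE 0.15, and -0.18 without metastatic replicate 1), and neither passed.

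Sdc1 encodes syndecan-1, a transmembrane heparan sulphate proteoglycan best known from epithelia and plasma cells. It had 11.22 and 11.33 on the metastatic and 11.72 and 11.13 on the non-metastatic arrays. The non-metastatic arrays enclosed the metastatic ones, and this probe set is marked as able to bind several transcripts. The difference of -0.15 (SE 0.21) turned to 0.15 without non-metastatic replicate 1. Of its 4 probe sets 3 were lower and 1 higher, from -0.17 to 0.25, and in the higher one alone the groups did not overlap.

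In lists of related genes drawn up beside the 10, most of the cell-surface proteoglycans and hyaluronan genes had lower mean signals in the metastatic group. Every difference past 1 log2 unit was negative, where 128 of all 18193 genes were lower by at least 2-fold and 44 higher. The largest positive differences were just under 1 log2 unit, in genes named after their values were seen. Adamts15 stood at 0.94 (SE 0.73), with 8.31 and 5.90 on the metastatic arrays against 6.32 and 5.99. Itih5 stood at 0.90 (SE 0.73), with 7.41 and 4.98 against 5.18 and 5.40. Both were highest on metastatic replicate 1. None of the listed genes passed limma's adjusted p over all probe sets, and the counts below use an unadjusted p under 0.05. At that p 4.07% of all genes were lower and 2.63% higher. Of 12 further cell-surface genes 4 were higher and 8 lower (median -0.20), and 2 were lower at that p. Sdc4, a syndecan of focal adhesions, had 10.93 and 10.79 on the metastatic arrays against 11.80 and 12.01, a difference of -1.05 (SE 0.13; limma adjusted p = 0.228). Its other probe set, which was dimmer, stood at -0.17. Sdc2 had 10.88 and 10.92 against 11.45 and 11.29 (difference -0.47, SE 0.12). Both syndecans, which are named for their small p, had groups that did not overlap, as did 34.6% of all genes. The groups of Sdc1 and of Sdc3, the remaining syndecan, overlapped, and Sdc3 stood at 0.33 (SE 0.24). Cspg4, a pericyte proteoglycan also in the smooth muscle marker list, stood at -0.39 (SE 0.16), or -0.18 when non-metastatic replicate 2 was dropped, and Tgfbr3, or betaglycan, at 0.29 (SE 0.12). The median of this list was 0.010 without non-metastatic replicate 1 and -0.0065 without metastatic replicate 2.

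Of 20 further matrix proteoglycans 9 were higher and 11 lower, with a median of -0.059. It was 0.0056 without non-metastatic replicate 1. Esm1, or endocan of endothelial cells, alone was under an unadjusted p of 0.05, and it was dim, with 3.73 and 4.21 against 5.80 and 4.94. Its difference was -1.40 (SE 0.31), or -0.97 without non-metastatic replicate 1. Srgn, which encodes serglycin of leukocyte granules and endothelium, had 7.33 and 6.26 against 8.40 and 7.29 (difference -1.05, SE 0.47), and was -0.50 without non-metastatic replicate 1 and -0.51 without metastatic replicate 2. Col18a1, a basement membrane collagen that carries heparan sulphate, stood at 0.48 (SE 0.22), or 0.18 without metastatic replicate 1. Acan, the aggrecan of cartilage, stood at 0.33 (SE 0.15), or 0.19 without metastatic replicate 2.

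Among enzymes that build, sulphate or degrade the chains, 24 of 43 were higher and 19 lower (median 0.044). All 5 under an unadjusted p of 0.05 were lower, where 4.07% of all genes were lower and 2.63% higher. Hs3st1, which adds a rare sulphate to heparan sulphate, had 6.11 and 6.10 on the metastatic arrays against 7.91 and 7.53, a difference of -1.61 (SE 0.15; limma adjusted p = 0.140). Its metastatic values were almost equal and far from the others. Papss2, which makes the sulphate donor, stood at -0.59 (SE 0.16), or -0.38 without metastatic replicate 1, the chondroitin sulphotransferase gene Chst13 at -0.57 (SE 0.15), and Ids, a lysosomal enzyme, at -0.37 (SE 0.12). The other probe sets of Papss2 stood between -0.13 and -0.10, and those of Ids between -0.30 and 0.053.

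Of 14 hyaluronan genes 3 were higher and 11 lower (median -0.14), and 2 were lower at an unadjusted p under 0.05, as were 4.07% of all genes. The hyaluronan synthase gene Has1 had 6.69 and 7.17 against 7.66 and 7.52 (difference -0.66, SE 0.18, and -0.42 without metastatic replicate 1). Cemip, which is needed for hyaluronan breakdown, had 9.19 and 9.65 against 10.02 and 11.14 (difference -1.16, SE 0.37), and -0.60 without non-metastatic replicate 2. Hmmr, a hyaluronan receptor gene that follows the cell cycle, stood at -0.21 (SE 0.14), or -0.057 without metastatic replicate 1. Hapln1, which was dim (mean 3.69), stood at -0.18 (SE 0.13), or -0.065 when non-metastatic replicate 2 was dropped.

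Of 14 genes for proteases that cut proteoglycans, with their inhibitor Timp3 counted among them, 7 were higher and 7 lower, with 2 higher and 3 lower at an unadjusted p under 0.05, against 2.63% and 4.07% of all genes. Timp3, a matrix-bound inhibitor that itself binds sulphated chains, had 12.40 and 11.86 on the metastatic arrays against 13.80 and 13.48 (difference -1.51, SE 0.21; limma adjusted p = 0.260). All 4 probe sets of Timp3 were lower, the others between -1.56 and -1.43. Mmp3, or stromelysin, had 6.12 and 5.21 against 8.10 and 7.59 (difference -2.18, SE 0.33; limma adjusted p = 0.292). The genes of 2 proteases that cut versican and aggrecan differed in sign, with Adamts1 at -0.59 (SE 0.17) and Adamts4 at 0.43 (SE 0.12). Each of these 4, which are named for their small p, had groups that did not overlap, as did 34.6% of all genes.

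**Figure D5:**
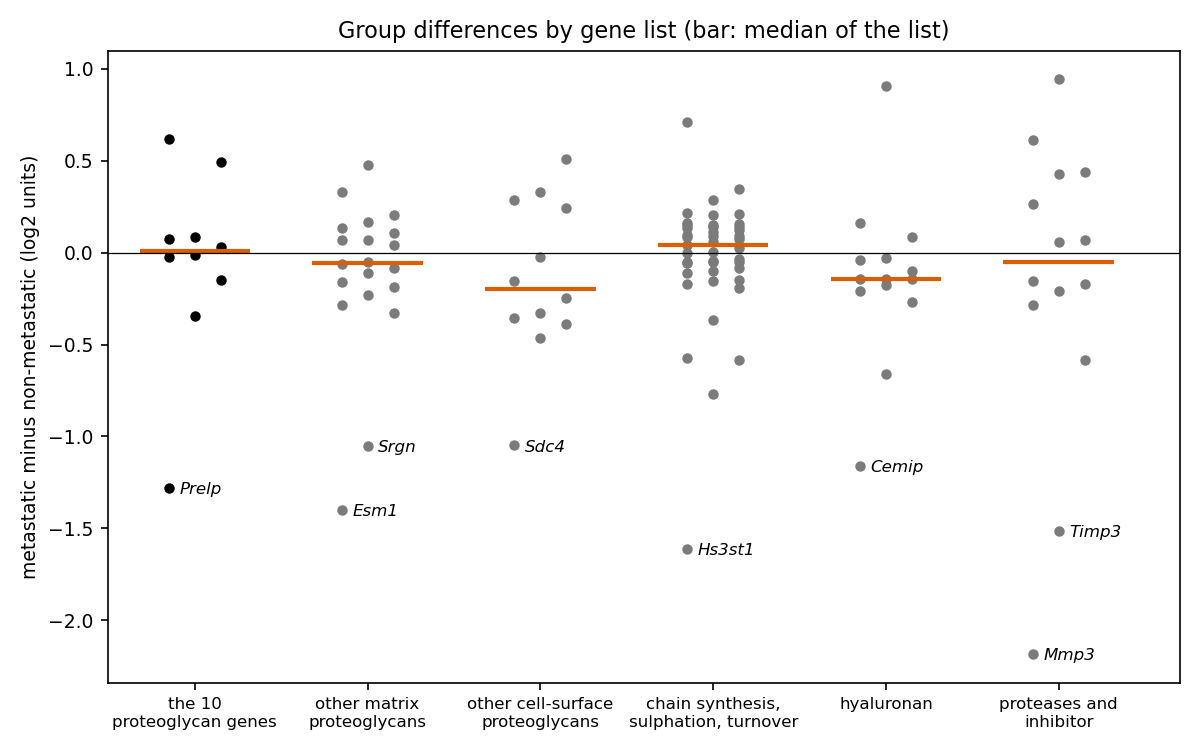
Group difference (metastatic minus non-metastatic, log2 units) of each gene, 1 point per gene, for the 10 proteoglycan genes and 5 lists of related genes, with a bar at each list's median; genes past 1 log2 unit are named. Every named gene lies below 0, and the medians lie between -0.20 and 0.044. Over all genes 128 were lower by at least 2-fold and 44 higher.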

How the data were processed

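Signals of 4 oligonucleotide arrays were compared, as metastatic minus non-metastatic. The authors deposited 1 value per probe set and array, taken here as log2 signal from its range; how the probes were summarised or normalized is not given in the sources used here. As array medians differed by 0.116, above a limit of 0.1, the arrays were quantile normalized with limma 3.58.1 in R 4.3.3. Of 45101 probe sets, 64 controls were left out. The annotation gave 1 symbol for 34945 probe sets, several for 932 and none for 9160, and symbols were updated through Entrez numbers for 34741. limma (lmFit and eBayes, 2 residual and 3.71 prior degrees of freedom) was fitted to all probe sets, with Benjamini-Hochberg adjustment. Scripts were tested on simulated data. The members and lists were chosen with earlier results of these data known. Named were all members, up to 4 genes of each list with the smallest p, and the 3 genes most like the member with the largest range; Gpc4, Optc, Ecm2, Kera, Epyc and genes beside the members are named for their position. Marker lists cover fibroblasts, lymphatic and blood endothelium, mural cells, leukocytes, epithelium and cycling cells. Of the lymphatic markers 3 of 8 were higher, of the blood endothelial ones 6 of 11, and of the fibroblast ones 8 of 12. Alternatives were other normalizations, filters, probe set choices, moderation, the replicate number as a block and each array left out. Figures used Python 3.11.15 with matplotlib 3.10.9. The number of arrays limits the precision, and p-values measure only the spread between these preparations.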

Additional observations from a re-analysis of the deposited data

How the results depend on the processing

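The differences of Prelp and Gpc3 kept their sign under every alternative run, and no member passed in a fit that kept all 4 arrays. An intensity trend with robust moderation called 5 probe sets and put 2 members under an unadjusted p of 0.05. A replicate block (equal numbers paired, which no label supports) called 145 probe sets and also put 2 members there; deviations of equal numbers correlated at 0.248 across probe sets. When all probe sets of a gene were averaged, Dcn stood at -0.017, and the list medians were -0.0052 for other matrix proteoglycans, -0.086 for other cell-surface ones and -0.070 for hyaluronan genes. Centring of array medians gave 0.079 for chain synthesis, and brighter probe sets alone gave -0.29 for cell-surface proteoglycans and no value for Lum. Leaving out 1 array in turn gave 0 to 67 called probe sets, 681 to 2846 genes (1219 with all arrays) and 1 to 4 members at an unadjusted p under 0.05, and 0 to 2 called members, Aspn and Prelp without metastatic replicate 1. Differences then ranged from -0.97 to 1.03 for Dcn, -0.46 to 0.41 for Lum, -0.013 to 0.16 for Bgn, -0.14 to 0.12 for Fmod, -0.59 to 1.57 for Ogn, -1.53 to 0.84 for Aspn, -0.024 to 0.20 for Vcan, -0.45 to 0.15 for Sdc1 and -1.84 to -0.72 for Prelp. List medians ranged from -0.084 to 0.0056 for matrix proteoglycans, -0.22 to 0.010 for cell-surface ones, 0.013 to 0.042 for chain synthesis, -0.19 to -0.10 for hyaluronan genes and -0.17 to 0.0080 for proteases. Each such fit keeps 1 residual degree of freedom, and the lone array is assumed to vary like the other group. The cause of these moves was not tested. Alternative pseudocounts were not run, since log values need none.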
